A study of Mus musculus with 9 samples.

Results

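Cystatins are small proteins that block cysteine proteases, and cathepsins are the proteases that break down proteins in lysosomes. Transcripts of 2 cystatin genes (Cst7 and Cst3) and of 8 cathepsin genes (Ctsa, Ctsb, Ctsc, Ctsd, Ctsh, Ctsl, Ctss and Ctsz) were followed across 3 ages in microglia, which are the macrophages that live in the brain. The 10 genes were chosen by symbol, all 10 were found among the 22036 genes of the deposited table, and all 10 passed the filter on low values. The microglia had been isolated by flow cytometry from brains of wild-type female C57BL/6 mice, which were 6 months old (young), 15 months old (middle-aged) or 23 months old (old). The labels name no transgene or treatment for any group. Each age had 3 libraries, and each library pooled the cells of 3 mice before RNA extraction, so p-values measure how pools of mice vary and not how single mice do. All values below are the deposited log2-scale normalized values unless another scale is named.

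Lysosomal cathepsins are made as inactive precursors, carried to the lysosome and cut into active enzymes there. Most of them are cysteine proteases: cathepsins B, L and S cut within proteins, while cathepsins C, H and Z trim protein ends, and cathepsin B can do both. Cathepsin D is an aspartic protease and cathepsin A a serine carboxypeptidase, so neither belongs to the class that cystatins inhibit. Cystatin C, encoded by Cst3, is secreted and is made by microglia in large amounts. Cystatin F, encoded by Cst7, is an inhibitor of immune cells that acts inside the endosome and lysosome, with cathepsin C among its known targets, and its gene is known from activated microglia.

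All 12 microglia markers passed the filter on low values. Old replicate 3 stood apart on the first principal component of all tested genes, at 29.9 against -14.4 to 5.90 in the other 8 libraries. Marker sums were taken on the linear scale by reversing the log2 of the deposited values. The transformation behind those values is not given, so the sums are in back-transformed units. Microglia markers came to 1536840 to 1780510 in old libraries, against 1869440 to 2126690 in young libraries. Of the 12, 1 was called higher and 2 were called lower, against 1.7% and 0.301% of all genes tested. Their median change was -0.20, and 9 had an unadjusted p under 0.05 in either direction. In the higher direction alone, 9.07% of all genes tested had such a p between old and young libraries. The share in the lower direction was not counted. The depth is unknown, because the sources used here hold no read totals. In RNA from sorted cells, more transcript per cell and more cells making the transcript cannot be told apart.

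Cst7 had the smallest p of all 14955 genes tested between old and young microglia. Its values were 13.32, 13.03 and 13.13 in old libraries, against 10.42, 10.45 and 10.48 in young libraries. The groups were far apart, and the 3 young libraries lay within 0.1 of each other (SD 0.14 in old and 0.030 in young libraries, n = 3 each). Cst7 rose 6.56-fold (log2 2.71 ± 0.11 SE; limma moderated test, Benjamini-Hochberg adjusted p = 1.8e-06). The authors' deposited table gives an 11.7-fold difference (log2 3.55), so the fold depends on which deposited values are used, and what the transformation of the per-library values does to folds was not tested. In middle-aged libraries the values were 12.08, 11.84 and 11.75, above every young library and below every old one. Cst7 therefore rose in both steps, by 1.44 ± 0.11 in middle-aged against young libraries (adjusted p = 0.000437) and by 1.27 ± 0.11 in old against middle-aged libraries (adjusted p = 0.00407). The first step made up 53.2% of the whole change. The test of the difference between the steps gave -0.17, with a 95% interval from -0.60 to 0.25, so steps of unequal size were not detected. Cst7 occupies bases 150570415 to 150578944 of chromosome 2 (GRCm38), where GENCODE M21 lists 1 transcript of 4 exons.

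Cst3 did not follow Cst7. Its values were 19.33, 19.14 and 19.54 in old libraries, against 19.39, 19.40 and 19.30 in young libraries, with the old libraries lying on both sides of the young ones. The change was -0.02 ± 0.09 (adjusted p = 0.916), and its 95% interval from -0.22 to 0.17 leaves room for a change of up to about that size in either direction. It ranged from -0.13, without old replicate 3, to 0.075 when each library was left out, and was -0.21 under quantile normalization (adjusted p = 0.319). The middle-aged libraries were at 19.43, 19.43 and 19.41. The SD was 0.059 in young, 0.0093 in middle-aged and 0.20 in old libraries (n = 3 each). Middle-aged against young libraries differed by 0.06 ± 0.09 and old against middle-aged libraries by -0.09 ± 0.09, and neither passed the test (adjusted p = 0.863 and 0.766). Without old replicate 3 the second was -0.19, and under quantile normalization the first turned to -0.0995. Cst3 is also on chromosome 2, at 148871722 to 148875692.

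**Figure D1:**
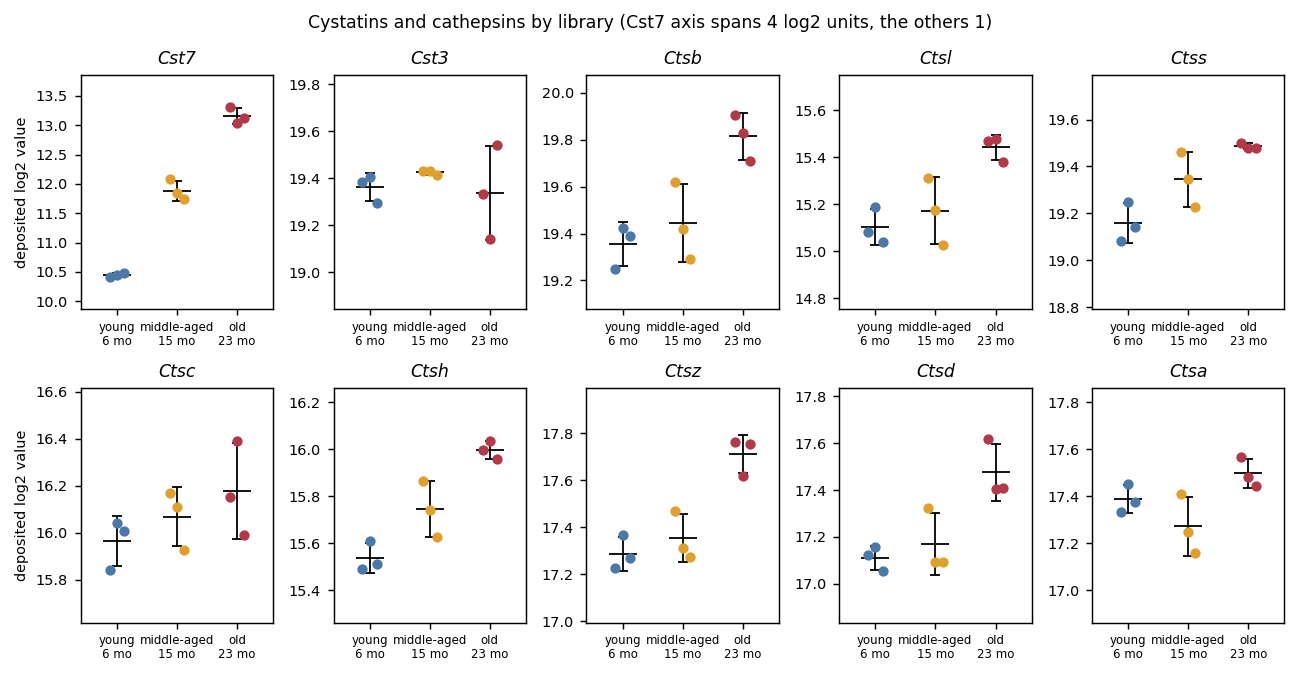
Deposited log2 values of the 10 genes in the 9 libraries (points), by age on the x axis, with the mean (line) and SD (bars, n = 3). The axis of Cst7 spans more log2 units than the others; Cst7 separates all 3 ages, while Cst3 is near 19.4 at each age.

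Between old and young microglia, 5 of the 10 genes rose and 0 fell at adjusted p under 0.05. The 5 were Cst7 and the cathepsin genes Ctsb, Ctsh, Ctss and Ctsz. Over all 14955 genes tested, 1.7% were called higher and 0.301% lower in this comparison. At an unadjusted limma p under 0.05, 7 of the 10 genes were higher, against 9.07% of all genes tested; Ctsd and Ctsl were the additional ones. The old libraries all lay above the young ones for 7 of the 10 genes, against 12.2% of all genes tested. The median change was 0.35 over the 10 genes and -0.0086 over all genes tested. For the 201 other genes with a mean value of at least 15, the range in which Cst3 and the cathepsins lie, the median was -0.019, and 14 (6.97%) were called higher and 7 lower.

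Among the cysteine endopeptidases, Ctsb had 19.91, 19.83 and 19.71 in old libraries, against 19.25, 19.42 and 19.39 in young libraries. Cathepsin B is one of the most abundant lysosomal proteases of macrophages. Its gene rose 1.37-fold (log2 0.46 ± 0.09 SE; adjusted p = 0.0318), with no overlap between the ages. Ctss encodes cathepsin S, which stays active at neutral pH and cuts the invariant chain during class II antigen presentation. Its values were 19.50, 19.48 and 19.48 in old libraries, against 19.08, 19.25 and 19.14 in young libraries. Ctss rose 1.26-fold (0.33 ± 0.07; adjusted p = 0.0430), and its old libraries were nearly identical (SD 0.013). Ctsl, encoding cathepsin L, had 15.47, 15.48 and 15.38 in old libraries, against 15.08, 15.19 and 15.04 in young libraries. Its ages did not overlap either, but the change of 0.34 ± 0.09 did not pass over all genes (adjusted p = 0.0796).

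Among the cysteine exopeptidases, Ctsh and Ctsz rose and Ctsc was not called. Ctsh, encoding the aminopeptidase cathepsin H, had 16.00, 16.03 and 15.96 in old libraries, against 15.49, 15.61 and 15.51 in young libraries. It rose 1.38-fold (log2 0.46 ± 0.08 SE; adjusted p = 0.0178). Ctsz, encoding the carboxypeptidase cathepsin Z (also called cathepsin X), had 17.76, 17.62 and 17.75 in old libraries, against 17.22, 17.37 and 17.27 in young libraries. It rose 1.34-fold (0.43 ± 0.08; adjusted p = 0.0218). For both genes every old library lay above every young one. Ctsc encodes cathepsin C, the dipeptidyl peptidase that activates granule serine proteases. It had 16.15, 16.39 and 15.99 in old libraries, against 15.84, 16.04 and 16.01 in young libraries. Old replicate 3 lay inside the young range, and the change of 0.21 ± 0.11 did not pass (adjusted p = 0.365); without that library it was 0.31.

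The cathepsins outside the cysteine class gave no call. Ctsd, encoding the aspartic protease cathepsin D, had 17.62, 17.40 and 17.41 in old libraries, against 17.12, 17.16 and 17.05 in young libraries. Its ages did not overlap, and the change of 0.36 ± 0.09 had an adjusted p of 0.0623 by limma. Ctsa encodes cathepsin A, a carboxypeptidase that also protects lysosomal galactosidase and neuraminidase. Its values were 17.57, 17.48 and 17.44 in old libraries, against 17.33, 17.45 and 17.38 in young libraries. These overlapped, and the change of 0.11 ± 0.08 did not pass (adjusted p = 0.512). All 8 cathepsin genes thus had a change above 0 between old and young libraries, from 0.11 to 0.46, against 47.4% of all genes tested, although under quantile normalization Ctsa turned to -0.077.

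RefSeq promoter windows on GRCm38.p6, from 250 bases before the start site to 50 after it, were matched for 8 of the 10 genes, all but Ctsb and Ctsh, in 9 windows. The letters CACGTG, the core bound by TFEB and its relatives, which drive lysosomal genes, were searched on both strands, as were GAGGAAG, a core bound by the macrophage factor PU.1, and TGAGTCA, bound by AP-1. CACGTG was found in 3 of the 9 windows, those of Ctsd, Ctsl and a downstream start of Ctsa, against 7.15% of 32851 windows genome-wide. The extended form TCACGTG, which contains CACGTG, was found in the windows of Ctsd and Ctsa, against 3.77% of all windows. GAGGAAG was found in the windows of Ctss and Ctsc, against 13.6%, and TGAGTCA in none of the 9, against 5.2%. In Ctsd the CACGTG matches began at positions -245 and -98, counted from the start site as 0, and in Ctss the GAGGAAG match spanned the start site. The windows of Cst7, Cst3 and Ctsz held none of these letters. The 4 windows shown, read 5′ to 3′ on the strand of the gene with matches to CACGTG and GAGGAAG (as CTTCCTC on the other strand) in capitals, set Cst7 and the called cathepsins Ctsz and Ctss beside Ctsd. They lie at chr2:150570165-150570464 on the plus strand for Cst7, chr2:174438990-174439289 on the minus strand for Ctsz, chr3:95526536-95526835 on the plus strand for Ctss and chr7:142387778-142388077 on the minus strand for Ctsd. A match is a description of the letters and not a site of binding.
Cst7: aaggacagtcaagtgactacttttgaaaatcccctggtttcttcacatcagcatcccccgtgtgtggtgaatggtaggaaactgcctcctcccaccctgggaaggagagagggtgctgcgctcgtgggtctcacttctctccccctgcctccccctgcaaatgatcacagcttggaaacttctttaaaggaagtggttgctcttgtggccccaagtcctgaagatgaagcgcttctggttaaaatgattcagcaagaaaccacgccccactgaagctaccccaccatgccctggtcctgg
Ctsz: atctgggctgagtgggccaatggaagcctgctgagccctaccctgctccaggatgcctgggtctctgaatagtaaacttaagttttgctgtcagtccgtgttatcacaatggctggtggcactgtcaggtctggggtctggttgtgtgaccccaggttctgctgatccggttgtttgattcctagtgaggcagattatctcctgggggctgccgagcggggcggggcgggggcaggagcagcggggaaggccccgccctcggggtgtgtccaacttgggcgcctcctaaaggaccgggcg
Ctss: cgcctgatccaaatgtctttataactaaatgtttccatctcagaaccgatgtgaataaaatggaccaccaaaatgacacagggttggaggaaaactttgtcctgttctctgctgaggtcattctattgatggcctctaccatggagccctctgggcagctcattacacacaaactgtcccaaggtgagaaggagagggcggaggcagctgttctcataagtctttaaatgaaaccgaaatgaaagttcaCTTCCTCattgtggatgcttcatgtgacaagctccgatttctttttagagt
Ctsd: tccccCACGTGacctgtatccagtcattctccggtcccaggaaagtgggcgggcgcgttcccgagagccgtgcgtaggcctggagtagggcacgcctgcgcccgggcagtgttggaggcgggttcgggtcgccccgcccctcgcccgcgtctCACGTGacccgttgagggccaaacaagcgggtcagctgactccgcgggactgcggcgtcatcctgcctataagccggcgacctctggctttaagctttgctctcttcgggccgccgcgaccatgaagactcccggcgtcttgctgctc

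**Figure D2:**
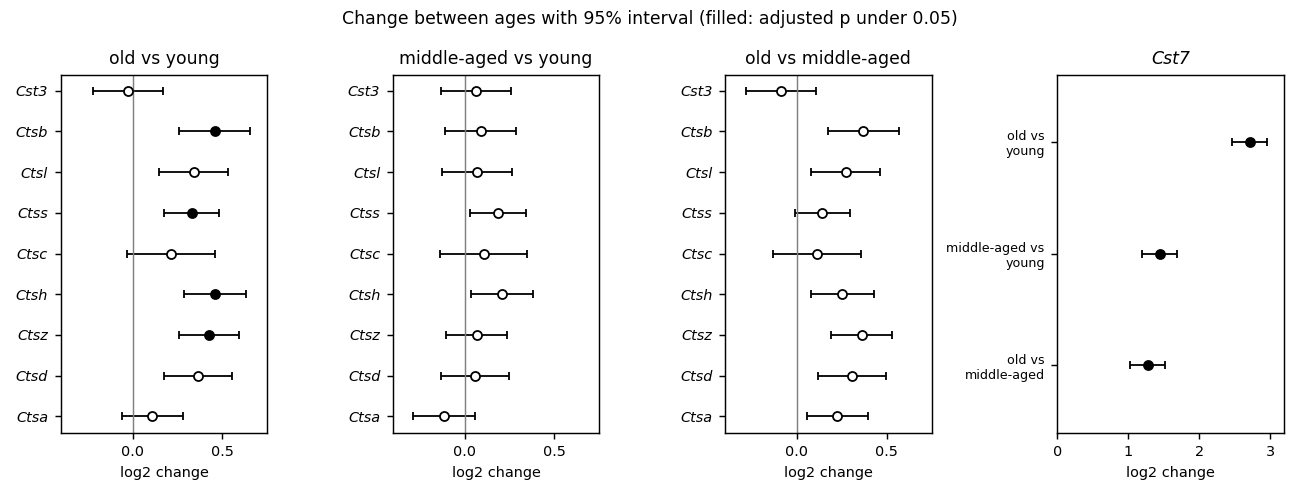
Log2 change of each gene in 3 comparisons of ages, on the x axis, with its 95% interval from the limma fit over 9 libraries; filled points passed adjusted p under 0.05. In old against young libraries Ctsb, Ctss, Ctsh and Ctsz passed beside Cst7, which has its own panel because its changes are larger.

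The 4 cathepsin calls, unlike that of Cst7, were lost in some fits. Cst7 kept its call whichever of the 9 libraries was dropped, with adjusted p up to 5.04e-05 over all alternatives. Ctsh kept its call in 6 of these 9 fits, Ctsz in 5, Ctsb in 3 and Ctss in 2. Of the 10 genes, only Cst7 was called when young replicate 1, young replicate 3 or old replicate 1 was dropped. The count was 3 when young replicate 2, middle-aged replicate 2, old replicate 2 or old replicate 3 was dropped, and 5 when middle-aged replicate 1 or 3 was. Without old replicate 3 the calls lost were those of Ctss and Ctsz (adjusted p = 0.0872 and 0.0588). Without a variance trend 3 genes were called. Under quantile normalization only Cst7 and Ctsh were called, and most cathepsin changes were smaller: 0.41 for Ctsh, 0.29 for Ctsz, 0.21 for Ctsb and 0.090 for Ctss, and 0.31 for Ctsl, 0.17 for Ctsd and 0.13 for Ctsc. Over all alternatives the adjusted p ran from 0.000982 to 0.119 for Ctsh, from 0.00124 to 0.131 for Ctsz, from 0.00125 to 0.169 for Ctsb and from 0.00334 to 0.445 for Ctss (limma, Benjamini-Hochberg).

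The authors' deposited table called 7 of the 10 genes higher between old and young, where 4.72% of its genes were called higher. In the authors' deposited table Ctsd and Ctsl were called too, with log2 changes of 0.44 and 0.42 (DESeq2 adjusted p = 0.00470 and 0.00165). Its changes for Ctsb, Ctsh, Ctss and Ctsz were 0.55, 0.57, 0.40 and 0.52, so each was somewhat larger than in the fit to the per-library values. The direction was the same in the authors' deposited table and in the fit for all 10 genes.

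At 15 months only Cst7 among the 10 genes was called against young microglia (limma), where 0.114% of all genes were called higher. Cst7, Ctsh and Ctss had an unadjusted p under 0.05 in the higher direction, against 6.21% of all genes tested. Every middle-aged library lay above every young one for 3 of the 10 genes, Cst7, Ctsh and Cst3, against 11.6% of all genes tested. For Cst3 the gap was narrow, 19.41 in the lowest middle-aged library against 19.40 in the highest young one. The cathepsin genes had changes from -0.12 (Ctsa) to 0.21 (Ctsh), with a median of 0.079, against -0.00082 over all genes tested. Ctsh had 15.86, 15.74 and 15.63 in middle-aged libraries, against 15.49, 15.61 and 15.51 in young libraries. Ctss had 19.46, 19.35 and 19.23 in middle-aged libraries, against 19.08, 19.25 and 19.14 in young libraries. The ages did not overlap for Ctsh, while for Ctss middle-aged replicate 3 lay just below young replicate 2, and neither passed over all genes (0.21 ± 0.08 and 0.19 ± 0.07, adjusted p = 0.346 and 0.334). Ctsb, Ctsd, Ctsl and Ctsz had smaller changes, from 0.058 to 0.089, and each of these 4 overlapped between the ages. Ctsb was at 19.62, 19.42 and 19.29 in middle-aged libraries. Ctsd was at 17.32, 17.09 and 17.09 and Ctsl at 15.31, 15.18 and 15.03 in middle-aged libraries. In each of these 3 genes middle-aged replicate 1 was above the young libraries and the other 2 were not. Ctsa was at 17.41, 17.25 and 17.16 and Ctsc at 16.17, 16.11 and 15.93 in middle-aged libraries, so Ctsa had 2 libraries below the young range and Ctsc had 2 above it. In this comparison quantile normalization turned Cst3, Ctsb, Ctsd and Ctsz below 0, and leaving out middle-aged replicate 1 turned Ctsd and Ctsl below 0. The authors' deposited table also called only Cst7 of the 10 genes at this step, with a log2 change of 1.81, where it called 3.26% of its genes higher.

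From 15 to 23 months all 8 cathepsin genes had a change above 0, from 0.11 (Ctsc) to 0.37 (Ctsb), as had 48.5% of all genes tested, with a median of 0.26 over the cathepsins and -0.0040 over all genes tested. Again Cst7 was the only one of the 10 called by limma, where 0.16% of all genes were called higher. The old libraries lay above every middle-aged library for 8 of the 10 genes, against 6.47% of all genes tested; the exceptions were Cst3 and Ctsc. At an unadjusted p under 0.05, 7 of the 10 were higher, against 5.42% of all genes tested. Ctsz had 17.76, 17.62 and 17.75 in old libraries, against 17.47, 17.31 and 17.27 in middle-aged libraries. Its change of 0.36 ± 0.08 had an adjusted p of 0.131 here, and in the authors' deposited table it was 0.41 with an adjusted p of 0.0277, which made Ctsz the 1 gene of the 10 called there beside Cst7; the authors' deposited table called 0.859% of its genes higher for this pair. Ctsb had a change of 0.37 ± 0.09, Ctsd of 0.31 ± 0.09 and Ctsl of 0.27 ± 0.09 (adjusted p = 0.200, 0.267 and 0.341). With only the old and middle-aged libraries in the fit, Cst7 itself missed the threshold (1.27, adjusted p = 0.0926), and 0 genes of the whole table were called. Without old replicate 3 the change of Ctsc at this step was 0.20.

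The first step, from young to middle-aged libraries, was set against the whole change between old and young libraries, although no cathepsin passed the test at that step. The share was 56.7% for Ctss, 45.0% for Ctsh and 48.9% for Ctsc, against 20.4% for Ctsl, 19.4% for Ctsb, 15.8% for Ctsd and 15.4% for Ctsz. For Ctsa the first step was below 0, at -0.12. These shares carry the error of both steps and were not tested against each other. The whole change was itself not called for Ctsc, Ctsl, Ctsd or Ctsa. For Ctsc its 95% interval ran from -0.030 to 0.46. Without middle-aged replicate 1 the first step was 0.00076 for Ctsb, -0.019 for Ctsd, -0.00038 for Ctsl and 0.0073 for Ctsz, so their shares rest on that library; for Ctss and Ctsh it was 0.13 and 0.15. The difference between the steps was 0.29 for Ctsz (95% interval from 0.0030 to 0.59) and -0.044 for Ctss (from -0.31 to 0.22), and no gene of the 14955 passed the adjusted threshold for it (limma), with 2 of the 10, Ctsa and Ctsz, higher at an unadjusted p under 0.05, against 3.72% of all genes tested.

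Ratios within a library remove whatever shifts both genes of a pair alike. Ctss minus Ctsz, a pair chosen after the values were seen, was 1.86, 1.88 and 1.88 in young libraries, 1.99, 2.03 and 1.95 in middle-aged libraries and 1.74, 1.86 and 1.73 in old libraries. The middle-aged libraries thus lay above both other ages, which overlapped narrowly. With 3 libraries against 3 an exact permutation test cannot go below 0.1, so these differences are a description.

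Cst7 minus each of the other 9 genes separated the 3 ages without overlap in every case. All 9 differences share Cst7, whose steps of 1.44 and 1.27 were larger than those of any other gene, so they are not separate results. Against its known target Ctsc, Cst7 was at -5.43, -5.59 and -5.53 in young libraries, at -4.09, -4.27 and -4.18 in middle-aged libraries and at -2.84, -3.36 and -2.86 in old libraries. The mean of this difference was -3.02 ± 0.29 in old libraries and -5.52 ± 0.085 in young libraries (SD, n = 3 each). Against Ctsb the mean was 2.25 higher in old than in young libraries and against Cst3 2.74 higher.

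**Figure D3:**
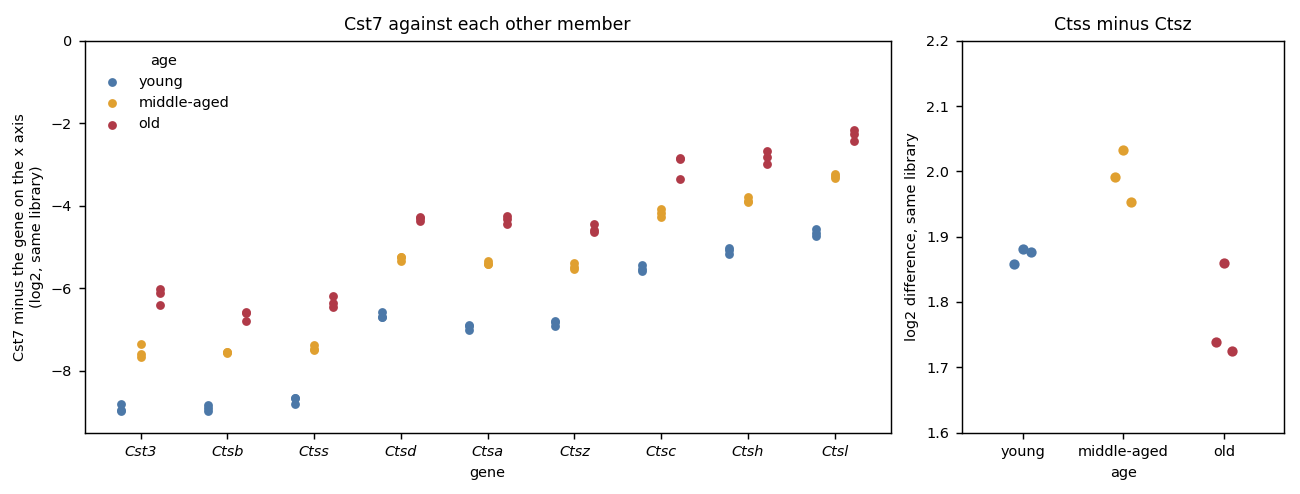
Left, log2 value of Cst7 minus that of each other gene in the same library, by age; right, Ctss minus Ctsz. Each point is 1 library; Cst7 is higher relative to all 9 other genes at each later age, and Ctss minus Ctsz is highest in the middle-aged libraries, from 1.95 to 2.03.

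Levels of different genes were compared per kilobase of the longest coding transcript. Cst3 was the most abundant of the 10 at each age and Cst7 the least abundant in young and middle-aged libraries. Per kilobase, Cst7 was 554-fold below Cst3 in young libraries, 213-fold below it in middle-aged libraries and 83.1-fold below it in old libraries. These folds depend on the per-library values, by which Cst7 rose 6.56-fold between young and old libraries, against 11.7-fold in the authors' deposited table. Next to Cst3 came Ctss, at 18.7, and Ctsb, at 17.1, on the log2 scale per kilobase in young libraries (SD 0.084 and 0.093, n = 3). In old libraries Cst7, at 13.2, was above Ctsl, at 12.8, with non-overlapping libraries. That last order rests on the long transcript of 6168 bases that GENCODE lists for Ctsl: with the median transcript length Ctsl stayed above Cst7 at 16.0, and Ctsb came before Ctss.

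In most libraries the cathepsins deviated from the mean of their age in a shared direction. In old libraries, 7 of 8 lay above it in replicate 1 and 1 of 8 in replicate 3. The most mixed libraries were old replicate 2 (4 of 8 above) and middle-aged replicate 2 (3 of 8 above). Middle-aged replicate 1 was the highest of its age for 8 of 8 cathepsin genes and middle-aged replicate 3 the lowest for 7. Young replicate 2 was the highest of its age for 8 of 8. On average over the 8 genes, middle-aged replicates 1, 2 and 3 deviated from the mean of their age by 0.13, -0.014 and -0.12, and young replicates by -0.059, 0.073 and -0.013. The sum of the microglia markers was also highest in middle-aged replicate 1, at 1806470 back-transformed units against 1619280 and 1578300 in replicates 2 and 3, and in young replicate 2. The part of this sum in the cathepsin values was not tested. Among old libraries, replicate 1 was the highest for 5 of 8 cathepsin genes, replicate 3 was the lowest for 5, and replicate 2 was the highest for 3 and the lowest for 3, with deviations from -0.093 to 0.21.

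**Figure D4:**
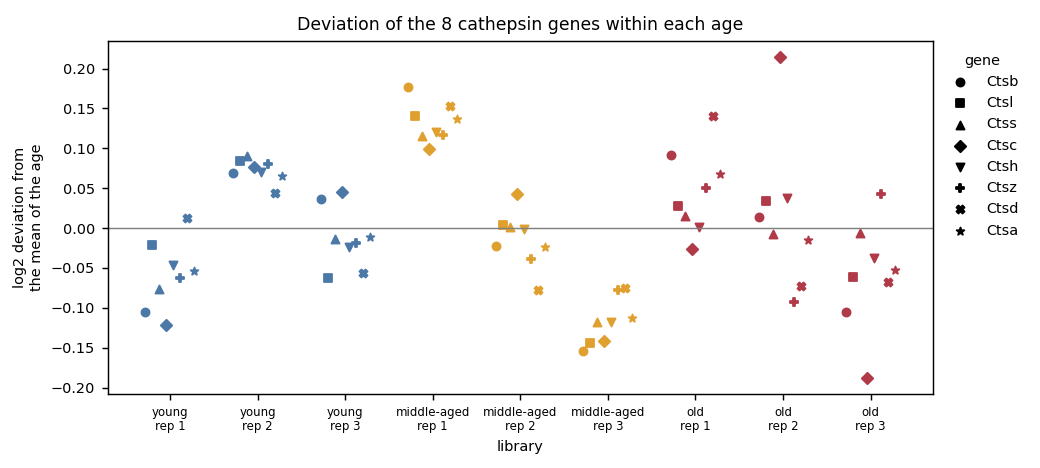
Deviation of each cathepsin gene (symbols) from the mean of its age, on the log2 scale, in each of the 9 libraries. All 8 genes lie above 0 in middle-aged replicate 1 and in young replicate 2, and below 0 in middle-aged replicate 3.

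Cst7 is also expressed by T cells, NK cells and neutrophils, so their markers stand beside it. All 14 T and NK cell markers passed the filter on low values. Between old and young libraries 2 of them were called higher and 10 had an unadjusted p under 0.05 in either direction. Their summed level was 4360 to 5571 back-transformed units in old libraries, against 3676 to 3901 in young libraries, with no overlap. In middle-aged libraries it was 3544 to 4308. Ccl5 had the highest values of the list and so weighs most in the sum. It was at 10.96, 11.34 and 11.47 in old libraries, against 10.77, 10.59 and 10.49 in young libraries. Cd4 went the other way, at 8.53, 8.54 and 7.66 in old libraries, against 8.79, 8.93 and 8.86 in young libraries. Between old and middle-aged libraries 9 of the 14 markers had an unadjusted p under 0.05. All 12 neutrophil markers passed the filter, and 0 of them were called or had an unadjusted p under 0.05 between old and young libraries (limma). Their sum was 266509 to 493859 in young libraries, 434397 to 987669 in middle-aged libraries and 216590 to 492438 in old libraries, highest in middle-aged replicate 2. Monocyte markers, 10 in all, summed to 39355 to 64846 in old libraries, against 31785 to 43141 in young libraries, with 3 called higher and 5 at an unadjusted p under 0.05. Of 10 border macrophage markers 1 was called lower and 8 had an unadjusted p under 0.05, with a median change of -0.46. Their sums were 86192 to 109991 in old libraries, against 130733 to 139844 in young libraries. Of the 6 dendritic cell markers 1 was called lower, and of the 8 oligodendrocyte and 6 endothelial markers 1 each was called higher. None of the B cell, astrocyte, neuron or erythrocyte markers tested was called (limma), and 2, 1, 0 and 1 of them had an unadjusted p under 0.05 between old and young libraries. The part of these cells in the values of Cst7 and the cathepsins was not tested. Among all genes tested, 1.7% were called higher and 0.301% lower between old and young libraries. The unadjusted counts of markers take both directions. In the higher direction alone, 9.07% of all genes tested had such a p between old and young libraries and 5.42% between old and middle-aged libraries. Shares in the lower direction were not counted.

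Of the wider families, 12 of 21 other cystatin-type genes were in the table and 4 were tested. Of these, 1 rose in old against young libraries and 0 fell, where 1.7% of all genes tested were called higher and 0.301% lower. Cstb, encoding stefin B, a cytosolic inhibitor of cysteine cathepsins, had 12.39, 12.19 and 12.62 in old libraries, against 11.77, 11.68 and 11.67 in young libraries. It rose 1.61-fold (log2 0.69 ± 0.11 SE; adjusted p = 0.0144). Of 17 other cathepsin-type genes 7 were tested, and 1 rose and 0 fell. Ctse, encoding cathepsin E, an aspartic protease of endosomes, had 12.28, 12.29 and 12.05 in old libraries, against 10.93, 11.17 and 10.96 in young libraries. It rose 2.28-fold (1.19 ± 0.13; adjusted p = 0.00103), more than any of the 8 cathepsins above, and its middle-aged values of 11.60, 11.84 and 11.40 lay between the other ages. At the single steps no gene of either list passed (limma), where 0.114% and 0.16% of all genes tested were called higher. At an unadjusted p under 0.05 in either direction there were 2 of 4 and 2 of 7 between middle-aged and young libraries. Between old and middle-aged libraries there were 1 of 4 and 4 of 7. In the higher direction alone, 6.21% and 5.42% of all genes tested had such a p at these steps.

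Genes that carry and mature cathepsins gave no call in any of the 3 comparisons (0 of 16, limma). Among all genes tested, 1.7% were called higher and 0.301% lower between old and young libraries. At the first and second step 0.114% and 0.16% were called higher. With shares this small, the absence of calls in this list and the short lists below says little about their genes. At unadjusted p under 0.05 in either direction there were 3 between old and young libraries, 4 between middle-aged and young libraries and 2 between old and middle-aged libraries. In the higher direction alone, 9.07%, 6.21% and 5.42% of all genes tested had such a p, and the lower direction was not counted. The smallest p values between old and young libraries were those of Gnptab, a subunit of the enzyme that makes the mannose 6-phosphate tag, and the sorting receptor gene Sort1, with changes of 0.36 ± 0.11 and -0.24 ± 0.08 (adjusted p = 0.134 and 0.175). The list had a median of -0.054 between old and young libraries. None of 5 lysosome transcription factor genes passed, and 0 had an unadjusted p under 0.05 in any of the 3 comparisons (limma). Between old and young libraries the smallest p values were those of Tfe3 (-0.14 ± 0.10) and Mitf (0.23 ± 0.18), with adjusted p = 0.531 and 0.559. Of the 12 granule serine proteases that cathepsin C activates in lymphocytes, mast cells and neutrophils 10 were tested and 0 were called in any of the 3 comparisons (limma). Between old and young libraries 3 had an unadjusted p under 0.05 in either direction. Gzmb and Gzma, which encode granzymes B and A and are themselves among the T and NK cell markers, had changes of 0.35 ± 0.09 and 0.55 ± 0.16 (adjusted p = 0.0770 and 0.116).

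The genes whose values followed Cst7 most closely over the 9 libraries were Itgax (Pearson r = 0.992), Gas2l3 (0.992), Prdx1 (0.989), Gpnmb (0.989) and Spp1 (0.988). These coefficients describe 9 libraries that fall into 3 ages and carry no test. Itgax encodes the integrin CD11c, Gas2l3 a cytoskeletal linker, Prdx1 a peroxiredoxin, Gpnmb a transmembrane glycoprotein and Spp1 osteopontin. Their changes differed in size from that of Cst7, from 0.81 for Prdx1 to 3.84 for Gpnmb in old against young libraries. No cathepsin was among them.

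The called cathepsin genes lie on 4 chromosomes. On GRCm38, Ctsb lies on chromosome 14 at 63122462 to 63145923, Ctsh on chromosome 9 at 90054152 to 90076089, Ctss on chromosome 3 at 95526786 to 95556403 and Ctsz on chromosome 2 at 174427493 to 174439039. Exons of Ctsa, Ctsb, Ctsd, Ctsl and Ctsz overlap exons of other annotated genes, on the opposite strand for Ctsb (Fdft1) and Ctsz (Nelfcd). For Ctsd (Gm49369) and Ctsl (Gm49230) an overlap lies on the same strand, which counting by strand would not resolve. For overlaps on the opposite strand, the sources used here do not say whether reads were counted by strand. Reads from all these overlaps therefore cannot be assigned with certainty. No exon of another gene overlaps those of Cst7, Cst3, Ctsc, Ctsh or Ctss.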

How the data were processed

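Per the labels' protocols, each library pooled flow-sorted microglia of 3 mice and was prepared with an ultra-low-input kit; the sources used here do not give the sort gate. The submitters' processing notes name CASAVA, cutadapt 1.13, STAR 2.5.3, DESeq2 1.16.1 and mm10, with no roles. The deposited per-library values, called normalized counts in the table's name, are log2 values that the authors made by a transformation not given here. The authors' deposited comparison tables hold, per the file headers, a mean signal (base mean), a log2 fold change, its standard error and a test score, and the p-value before and after adjustment, per pair of ages.

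The log2 values were used as deposited. The 14955 genes that reached log2 of 10 (3.32) in 3 or more libraries were tested. limma 3.58.1 (R 4.3.3) fitted 1 mean per age to all 9 libraries, using a variance trend, and differences were tested two-sided with Benjamini-Hochberg adjustment over all genes tested at 0.05. The script was tested on simulated data. The members, gene lists, motifs and tests were chosen with earlier results of these data known. All members are described; from each other list the called genes are named, or, where there were none, the 2 with the smallest p, and for Cst7 the 5 genes with the highest Pearson r. The GAGGAAG and TGAGTCA searches were added later. Transcript lengths, exons and positions come from GENCODE M21 on GRCm38. Alternatives covered filters, scaling, pseudocounts, weights per library, variance settings, fits of 2 ages, a replicate block and dropping each library in turn. Figures were drawn with matplotlib 3.10.9.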

Additional observations from a re-analysis of the deposited data

How the results depend on the processing

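Over all alternatives the rise of Cst7 kept its direction in the 3 comparisons of ages, and it kept its call except in the fit of old and middle-aged libraries alone, where the change was 1.27 with adjusted p = 0.0926 (limma) and 0 genes of the whole table were called; fewer libraries entered that fit. In old against young libraries the count of the 10 genes called higher was 5 in the fit reported. It was 2 with quantile normalization, 3 with no variance trend and 7 with library weights. It was 4 with a filter at log2 of 50, median scaling, a pseudocount of 10, a robust variance setting or 2 ages only. It stayed 5 with no filter or a pseudocount of 1, and was 1 to 5 when each library was left out. With the replicate number as a block it was 4, and the Ctss call was lost (0.33, limma adjusted p = 0.0706). Apart from dropping libraries, Ctss was called in 3 of 11 other settings, against 9 for Ctsb, 10 for Ctsz and 11 for Ctsh. Same-numbered libraries had correlations of their deviations from -0.24 to 0.23, above 0.1 in 3 of 9 pairs. Differently numbered libraries were not compared, so these values cannot tell whether the replicate numbers pair the libraries. The count of all genes called between old and young, 299 in the fit reported, was 170 with no filter, 185 with the block, 153 with 2 ages and 1609 with library weights, where Ctsd and Ctsl were called as well, and 84 to 322 when each library was left out.

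Quantile normalization turned the direction of some changes that were not called: Ctsa to -0.077 in old against young libraries, Cst3 to -0.0995, Ctsb to -0.035, Ctsd to -0.12 and Ctsz to -0.052 in middle-aged against young libraries, and the difference between the steps of Ctsh to -0.063. When each library was left out, Cst3 ranged from -0.13 to 0.075 in old against young and from -0.19 to 0.012 in old against middle-aged libraries. In middle-aged against young libraries Ctsd ranged from -0.019 to 0.096 and Ctsl from -0.00038 to 0.14. The difference between the steps ranged from -0.31 to 0.018 for Cst7, -0.14 to 0.10 for Ctsc, -0.16 to 0.072 for Ctss and -0.073 to 0.17 for Ctsh. The cause of these changes was not tested. The depth is unknown, so its limits cannot be given.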

Other observations

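The deviations of the cathepsins within an age and the marker sums can be set side by side for the old libraries too. Old replicates 1, 2 and 3 deviated from the mean of their age by 0.046, 0.014 and -0.060 on average over the 8 cathepsin genes. Their microglia marker sums were 1771060, 1780510 and 1536840 back-transformed units, and their T and NK cell marker sums were 4360, 5181 and 5571. Ctsh minus Ctsz was -1.73, -1.76 and -1.76 in young libraries, -1.61, -1.57 and -1.65 in middle-aged libraries and -1.77, -1.59 and -1.80 in old libraries. For this pair, chosen after the values were seen, the middle-aged libraries lay above the young ones and old replicate 2 lay among the middle-aged ones.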
